A study of Mus musculus with 4 samples.

Results

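The genes described here encode the machinery that carries newly made proteins into the endoplasmic reticulum (ER) and on to the Golgi apparatus. They were found by name among probe sets with 1 annotated symbol: Sec followed by 2 digits and optional letters, the coatomer genes Copa to Copz2, and the Tmed, Ssr, Spcs, Srp and Pdia genes with a number. The rule gave 49 genes of the 12393 with 1 symbol on the array, and 45 of them were bright enough to be tested, of 8410 genes tested. Each gene was read on its probe set with the highest mean over the arrays. The rule itself uses names alone, but it was chosen with earlier results of these data known.

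The samples were the atrioventricular (AV) junction and the ventricular region of wild-type C57BL/6 mouse hearts at embryonic days 10.5 to 11.0. Each was tissue dissected from about 80 hearts, which gave 230 ng of RNA for the AV junction and 250 ng for the ventricular region. The RNA was amplified before labelling. Over the arrays, control probe sets at the 3′ end read 16.6 to 23.4 times those at the 5′ end for actin. For Gapdh the ratio was 15 to 18.4. Its part in differences between probe sets of a gene was not tested. Each region was hybridised to 2 Affymetrix MOE430A arrays, labelled 1a and 1b, so there were 4 arrays in all. The labels name no separate animals for 1a and 1b, and p-values therefore measure the spread between arrays, which may be technical. All values are intensities scaled to a trimmed mean of 500 per array, and each log2 fold is the AV junction's value minus that of the ventricular region.

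Defining markers followed the region labels. In the AV junction 7 of 8 markers of AV canal muscle and cushion passed as higher and 0 as lower, and of 6 tested markers of ventricular chamber muscle 0 were higher and 5 lower. Transcripts from lists of other tissues also differed between the regions. The summed intensity of 6 serum protein genes made by liver or yolk sac, led by Afp, lay between 6868 and 7342 on the AV arrays and between 367.6 and 489.1 on the ventricular arrays, and 4 of its 4 tested genes were higher. The summed intensity of 7 erythroid genes lay between 16270 and 16300 on the AV arrays and between 39780 and 45270 on the ventricular arrays, with 4 of 6 tested genes lower. Of 5 genes listed as epithelial 3 were tested, the keratins Krt8, Krt18 and Krt19, of which 0 were higher and 2 lower. Epcam and Cdh1 were too dim to be tested. The summed intensity of the 5 lay between 1658 and 1928 on the AV arrays and between 2376 and 2610 on the ventricular arrays. The part of these listed genes in the results on secretory genes was not tested. In whole tissue fewer cells of a type and less RNA per cell cannot be told apart. The brightest Bacillus subtilis control probe set, taken here as background, read 58.6 and 52.6 in the AV junction, against 97.9 and 104 in the ventricular region, and its part was likewise not tested. All 4 arrays came from the same chip lot and the same fluidics station.

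Secretory proteins carry a signal peptide that the signal recognition particle (SRP) binds as it leaves the ribosome. The particle brings the ribosome to the Sec61 channel, where the chain crosses the ER membrane, loses its signal peptide and is folded and cross-linked by disulphide isomerases. Cargo leaves the ER in vesicles coated by COPII, and escaped proteins return from the Golgi in vesicles coated by COPI. At the AV junction of the embryonic heart, cells of the forming cushions deposit a matrix rich in secreted proteins and glycans, while the ventricular wall grows as contractile muscle.

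More secretory genes were higher in the AV junction than lower. At an adjusted p of at most 0.05 in limma, 12 of the 45 tested were higher, or 26.7%, against 8.47% of all genes tested, and 1 was lower, or 2.22%, against 6.56%. The higher genes were Sec62, Sec63, Ssr1, Sec11a, Sec16a, Sec23a, Sec24b, Sec24d, Sec22b, Sec23ip, Copb2 and Tmed5, and the lower gene was Sec11c. Most differences were small: the median log2 fold of the tested members was 0.21, beside −0.06 for all genes tested, and the quartiles were −0.04 and 0.45 beside −0.33 and 0.23. Both AV arrays lay above both ventricular arrays for 24 tested members (53.3%, against 27.7% of genes) and below them for 7 (15.6%, against 34.7%). With 1 array left out, which leaves a lone array in a region, fewer members and fewer genes were higher in every fit. The members' share then lay closer to that of all genes, most closely without ventricular array 1a. For lower members the share was near or above that of all genes in some of these fits. The members' median log2 fold was 0.179 to 0.295 in them, beside −0.065 to −0.03 for all genes. Brightness was not matched in these comparisons. Without a trend in the variance model 1 member was higher (2.22%, against 2.9% of genes) and 1 lower (2.22%, against 2.49%), so the members' share was then not above that of all genes.

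**Figure D1:**
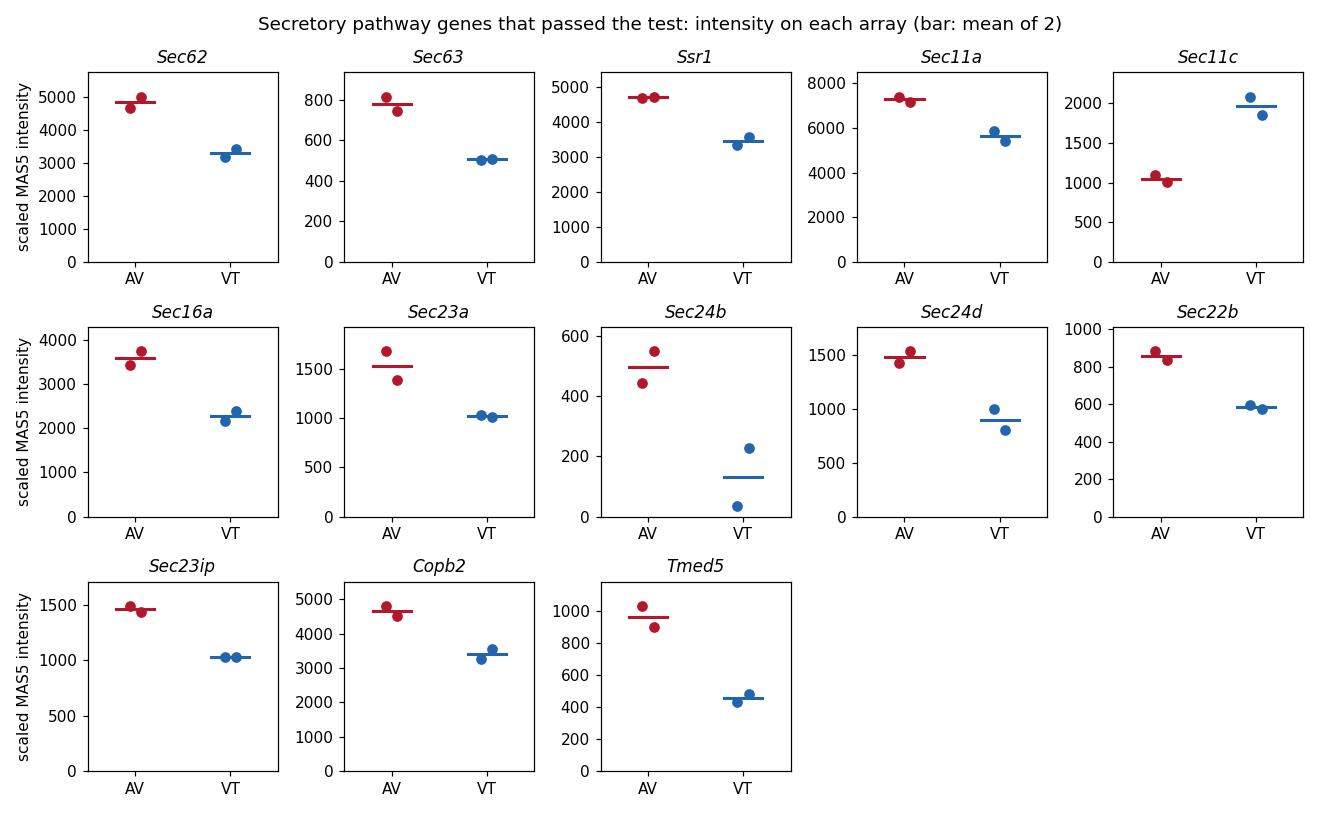
Scaled MAS5 intensity of the 13 secretory pathway genes that passed the test, a panel for each gene, with the AV junction (red, left) and the ventricular region (blue, right) and each axis starting at 0. Points are arrays and bars are means of 2 arrays; in 12 panels both AV points lie above both ventricular points, and Sec11c lies the other way.

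Members were bright, and bright genes passed more often in either direction. Of the 45 tested, 33 fell in the 2 brightest of 5 equal bins of probe sets by mean intensity. In the brightest bin 6 of 19 members were higher, beside 17.3% of genes, and in the next bin 5 of 14, beside 12.5%. With the bins weighted as the members fill them, 12.5% of all genes were higher and 8.68% lower, and their median log2 fold was 0.01. With all 4 arrays, the share of higher members thus lay above that of genes of like brightness, and the share of lower members below it.

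**Figure D2:**
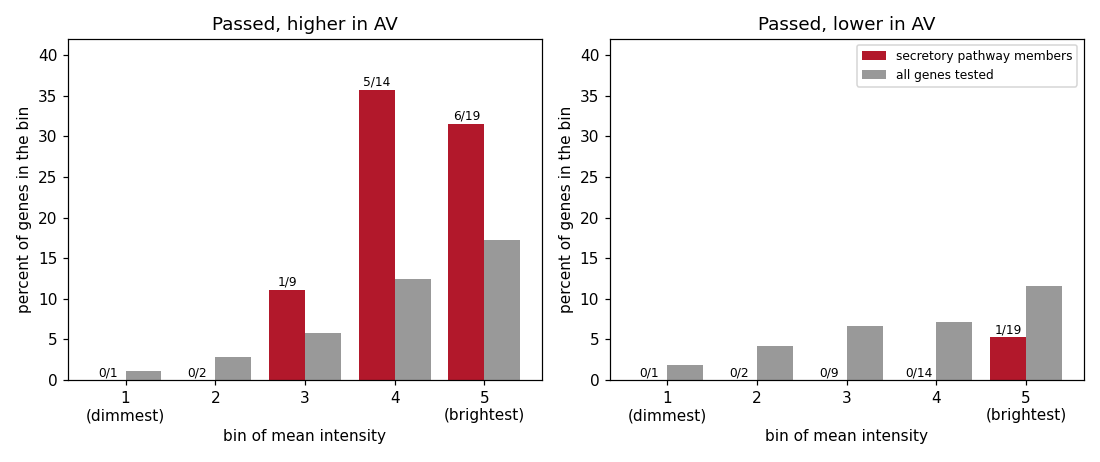
Percent of genes that passed, higher (left) or lower (right) in the AV junction, in 5 bins of mean intensity, for the secretory pathway members (red, with counts above the bars) and for all genes tested (grey). In the 2 brightest bins the members' bars for higher genes stand at 5 of 14 and 6 of 19, above the grey bars at 12.5% and 17.3%, and the 1 lower member is in the brightest bin.

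Promoters of the members were searched for elements of the unfolded protein response, the programme by which a loaded ER raises its own machinery. RefSeq's promoter table for GRCm38.p6 holds 250 bases before to 50 bases after each start, and 42 of the 49 genes matched by gene ID. The element TGACGTGG, core of the site known as UPRE, was found on either strand in 5 of the 42 (11.9%), beside 1.14% of the 6838 tested genes in the table and 0.676% of all 32851 promoters. The 5 were Sec24d, Copb1, Copb2, Sec23a and Sec16b, of which Sec24d, Copb2 and Sec23a were higher in the AV junction. The element known as ERSE, CCAAT and CCACG with 9 bases between them, was found in Pdia6 alone (2.38% of members, 0.205% of tested genes, 0.119% of promoters). ERSE-II, ATTGG and CCACG with 1 base between them, was found in 0 members and 0.0365% of promoters, and the cyclic AMP element TGACGTCA in Cope alone (2.38% of members, 3.45% of tested genes, 1.79% of promoters). A match is a run of letters and not a shown binding site.

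The promoters below are printed because they hold the UPRE core or ERSE, shown in capitals, or, for Tmed5, because that gene was higher in every fit with 1 array left out. All are read 5′ to 3′ on the gene's strand, from GRCm38.p6. The first 3 are the 250 bases before the start of Sec24d (plus strand, chr3:123267246-123267495), Copb1 (minus strand, chr7:114254681-114254930) and Tmed5 (minus strand, chr5:108132621-108132870, with no match to these elements). The others are short windows around the element of Copb2 (plus strand, chr9:98563713-98563742), Sec23a (minus strand, chr12:59011993-59012022) and Pdia6 (plus strand, chr12:17266486-17266514).
Sec24d: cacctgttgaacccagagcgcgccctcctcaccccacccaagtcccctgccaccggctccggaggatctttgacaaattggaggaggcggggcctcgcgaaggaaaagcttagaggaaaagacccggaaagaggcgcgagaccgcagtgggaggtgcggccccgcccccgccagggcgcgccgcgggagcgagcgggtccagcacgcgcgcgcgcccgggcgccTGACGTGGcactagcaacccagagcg
Copb1: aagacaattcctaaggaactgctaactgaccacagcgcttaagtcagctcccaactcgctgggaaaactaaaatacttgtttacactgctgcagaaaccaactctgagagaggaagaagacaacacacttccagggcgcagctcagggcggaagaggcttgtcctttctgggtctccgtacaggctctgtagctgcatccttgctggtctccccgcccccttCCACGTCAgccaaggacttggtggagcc
Tmed5: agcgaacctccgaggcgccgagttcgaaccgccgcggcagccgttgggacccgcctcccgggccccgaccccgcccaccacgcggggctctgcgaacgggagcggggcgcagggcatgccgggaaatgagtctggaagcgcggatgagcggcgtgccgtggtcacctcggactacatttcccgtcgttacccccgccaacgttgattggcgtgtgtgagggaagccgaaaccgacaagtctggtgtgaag
Copb2: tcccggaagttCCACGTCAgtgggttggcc
Sec23a: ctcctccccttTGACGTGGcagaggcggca
Pdia6: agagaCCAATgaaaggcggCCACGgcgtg

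In Sec24d the core ended 19 bases before the start and in Copb1 21 bases before it. In Copb2 it ended on the start base, and in Sec23a 14 bases into the transcript. It lay on the opposite strand in Copb1 and Copb2, where the printed letters are its reverse complement. The shorter run ACGTG, which the UPRE core contains and which was searched after these results were seen, was present in 28 of the 42 members (66.7%), in 29.6% of tested genes and in 19.6% of promoters. Of the 12 higher members 9 held it, and a link between this run and the calls was not tested. Members had a median of 22.5 CpG dinucleotides per promoter, beside 22 in tested genes, and a median GC share of 62.2%, beside 62%.

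Targeting genes gave 0 higher and 0 lower of 4 tested, beside 8.47% and 6.56% of all genes tested. Srp14, which with Srp9 forms the end of the particle that pauses translation, read 12430 and 12450 on the AV arrays, against 13880 and 14340 on the ventricular arrays. Its arrays did not overlap, but the test was not passed (log2 fold −0.18, adjusted p = 0.184). Its 3 other probe sets gave log2 folds between −0.24 and −0.12. Srp9 read 2215 and 2124 in the AV junction and 1730 and 1760 in the ventricular region, again without overlap and without passing (0.31, adjusted p = 0.0779). The log2 fold was −0.09 for Srp19, which helps the particle's RNA fold, and 0.30 for Srp68, which binds that RNA, and both overlapped between regions.

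Of 3 channel genes tested 2 were higher and 0 lower, beside 8.47% and 6.56% of all genes tested. Sec62, a membrane protein that assists the entry of chains with weak signals, read 4677 and 5009 in the AV junction, against 3184 and 3406 in the ventricular region. Its AV arrays were both above its ventricular arrays, a 1.46-fold difference (log2 fold 0.55, SE 0.09, adjusted p = 0.0113). Sec63, which brings the chaperone Hspa5 to the channel through its J domain, read 815.6 and 743.1 in the AV junction and 503.2 and 507.8 in the ventricular region, 1.49-fold (0.58, SE 0.13, adjusted p = 0.0267). Sec61b, the small beta subunit of the channel, overlapped between regions (4466 and 6512 against 3533 and 4759) and did not pass (0.39, adjusted p = 0.22). The pore genes Sec61a1 and Sec61a2, whose symbols end in a digit and so lie outside the rule, had log2 folds of 0.10 and −0.003 and were not called. Some of the 15 probe sets left out because they carry several symbols were too dim to be tested. Of all 13403 probe sets tested 970 were higher and 882 lower, and of the rest of the 15, 0 were higher and 1 was lower. That probe set lists a further channel subunit beside other genes, so its source is uncertain, and it read 1190 and 1125 in the AV junction, against 1798 and 2037 in the ventricular region (−0.70, SE 0.11, adjusted p = 0.00895). It thus ran opposite to Sec62 and Sec63. Other probe sets of Sec62 gave 0.35 and 0.64 and those of Sec63 0.24, −0.14 and −0.08, and 0 of these 5 passed. With probe sets averaged, Sec63 gave 0.15 (adjusted p = 0.559).

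The translocon-associated protein complex (TRAP), which stays beside the channel and helps chains to enter, was mixed. Ssr1, its alpha subunit, read 4693 and 4726 in the AV junction, against 3337 and 3579 in the ventricular region. The arrays did not overlap, and the gene was 1.36-fold higher (log2 fold 0.44, SE 0.09, adjusted p = 0.021). Ssr3, the gamma subunit, read 3205 and 3395 against 2567 and 2625 and just missed (0.34, adjusted p = 0.0523). Ssr4, the delta subunit, lay the other way at 398.1 and 461.5 in the AV junction and 554.9 and 553.4 in the ventricular region (−0.34, adjusted p = 0.157), and Ssr2, the beta subunit, overlapped (0.13, adjusted p = 0.546). Second probe sets of Ssr1 gave −0.05 and 0.41 and did not pass.

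The 2 catalytic subunits of signal peptidase, which cuts signal peptides off, differed in opposite directions. Sec11a read 7405 and 7176 in the AV junction, against 5857 and 5412 in the ventricular region. It was 1.29-fold higher without overlap of arrays (log2 fold 0.37, SE 0.09, adjusted p = 0.0362). Sec11c read 1094 and 1006 in the AV junction, against 2085 and 1850 in the ventricular region. Both AV arrays lay well below both ventricular arrays, and Sec11c was 1.83-fold higher in the ventricular region (−0.87, SE 0.11, adjusted p = 0.00405). Sec11c passed in each of the 4 fits with 1 array left out (log2 fold −0.96 to −0.79), whereas Sec11a passed in 0 of them (adjusted p 0.0919 to 0.168). Within an array the log2 ratio of Sec11a to Sec11c was 2.71 and 2.77 in the AV junction and 1.47 and 1.52 in the ventricular region, a shift of 1.24. An exact two-sided permutation of 2 arrays against 2 cannot give a p under 0.333, so such ratios are given without a test. The accessory subunits did not pass: the log2 fold was −0.04 for Spcs1, 0.16 for Spcs2 and −0.20 for Spcs3, whose yeast counterpart is needed for cleavage.

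Disulphide isomerases gave 0 higher and 0 lower of 4 tested, beside 8.47% and 6.56% of all genes tested. Their log2 folds spread widely. Pdia6, the brightest, read 4062 and 4642 in the AV junction and 3781 and 4106 in the ventricular region. These overlapped (log2 fold 0.14, adjusted p = 0.399). Pdia5 read 476.8 and 488.7 against 188.8 and 335.7 without overlap (0.81, SE 0.23, adjusted p = 0.0594). Pdia4 read 73.7 and 22.5 in the AV junction, where 1 of 2 arrays was above background, and 231.7 and 126.8 in the ventricular region (−1.24, SE 0.37, adjusted p = 0.0652). That log2 fold was −2.04 with a pseudocount of 1 and −0.61 with 200. Its other probe set was too dim to be tested and overlapped, at 101.5 and 96.2 against 99.6 and 34.2. Pdia3, which folds glycoproteins held by calnexin and calreticulin, overlapped (0.17, adjusted p = 0.555).

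Among genes of the COPII coat 4 of 8 tested were higher, beside 8.47% of all genes and 17.3% of those in the brightest bin. The lower count was 0, beside 6.56% and 11.6%. Each of the 4 calls was lost without a trend in the variance model. For 7 of the 8 both AV arrays were above both ventricular arrays, beside 27.7% of all genes, and the median log2 fold was 0.43. Sec16a, the scaffold of ER exit sites, read 3448 and 3746 in the AV junction, against 2178 and 2393 in the ventricular region. It was 1.56-fold higher (log2 fold 0.64, SE 0.10, adjusted p = 0.00863), while its other probe set, at 481.2 and 486.3 against 427.5 and 508.4, gave 0.05 and did not pass. Sec23a, the inner coat subunit that makes Sar1 hydrolyse GTP, read 1681 and 1391 in the AV junction and 1039 and 1011 in the ventricular region. The regions did not overlap (1.47-fold, 0.56, SE 0.13, adjusted p = 0.0281), and the gap was narrower on AV array 1b. Its paralog Sec23b read 1449 and 1420 against 1072 and 1225 and did not pass (0.31, adjusted p = 0.113).

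The Sec24 proteins, which bind cargo within the coat, gave unlike values. Sec24d read 1422 and 1529 in the AV junction, against 999.4 and 798.2 in the ventricular region. Neither AV array overlapped with these, and the gene was 1.62-fold higher (log2 fold 0.69, SE 0.14, adjusted p = 0.0173). Sec24b read 444.3 and 549.3 in the AV junction and 35.9 and 228.7 in the ventricular region, where 1 of 2 arrays was above background. It passed as higher with a wide error (log2 fold 1.82, SE 0.48, adjusted p = 0.046). The size depends on the pseudocount, at 2.43 with 1 (adjusted p = 0.0708) and 1.13 with 200 (adjusted p = 0.0269), and the call was also lost under quantile normalisation (adjusted p = 0.0571). Its log2 fold was 0.97 without ventricular array 1a (adjusted p = 0.0542) and 2.66 without ventricular array 1b (adjusted p = 0.00425). Sec24c read 2294 and 2404 against 2101 and 2208 and did not pass (0.12, 95% interval −0.11 to 0.35). Of the outer coat genes, Sec13 had a log2 fold of 0.24 and Sec31a of −0.21, and neither passed. Sec16b, a second Sec16 gene, read 75.4 and 64.0 in the AV junction and 34.2 and 34.9 in the ventricular region, too dim to be tested.

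Of 3 tested Sec genes that act outside the coat 2 were higher and 0 lower, beside 8.47% and 6.56% of all genes tested. Sec22b, a SNARE that fuses vesicles between the ER and the Golgi, read 881.3 and 837.3 in the AV junction, against 593.4 and 572.2 in the ventricular region. It was 1.44-fold higher without overlap (log2 fold 0.52, SE 0.12, adjusted p = 0.0312), but its other probe set gave 0.01. Sec23ip, which binds Sec23 at exit sites, read 1487 and 1435 against 1029 and 1033, a 1.40-fold difference (0.48, SE 0.10, adjusted p = 0.0253). The arrays of each region agreed closely there. Sec22a, a relative of Sec22b, overlapped (0.17, adjusted p = 0.591).

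Among the 8 genes of the COPI coat 1 was higher and 0 lower, beside 8.47% and 6.56% of all genes tested. Copb2, the beta-prime subunit that binds the retrieval signal of returning proteins, read 4790 and 4508 in the AV junction, against 3252 and 3545 in the ventricular region. It was 1.36-fold higher without overlap (log2 fold 0.45, SE 0.10, adjusted p = 0.0239), and its second probe set gave 0.47 (adjusted p = 0.0636). Copb1, the beta subunit, read 425.6 and 422.7 against 291.7 and 226.0 and just missed (0.63, SE 0.17, adjusted p = 0.0523). Copa, the alpha subunit, gave 0.39 (adjusted p = 0.0712), and Cope, the epsilon subunit, overlapped at 0.07.

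The coatomer has 2 forms each of its gamma and zeta subunits. Copg1 gave a log2 fold of −0.11 and overlapped, and Copg2 read 351.5 and 343.6 in the AV junction and 507.9 and 475.6 in the ventricular region (−0.45, adjusted p = 0.0792). Copz1 gave 0.37 and Copz2 −0.31, and 0 of these 4 passed. The log2 ratio of Copz1 to Copz2 within an array was −0.03 and 0.08 in the AV junction and −0.55 and −0.76 in the ventricular region, a shift of 0.68. Copg1 to Copg2 shifted by 0.34.

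The p24 proteins cycle between the ER and the Golgi as cargo receptors. Tmed5, which takes part in the export of lipid-anchored proteins, read 1032 and 899.6 in the AV junction, against 434.8 and 483.6 in the ventricular region. It was 1.99-fold higher with no overlap (log2 fold 1.00, SE 0.14, adjusted p = 0.00482), and it passed in each of the 4 fits with 1 array left out (0.90 to 1.09). Its dimmer second probe set, at 173.6 and 171.6 against 154.6 and 132.5, gave 0.20 and did not pass. The other tested p24 genes were not called. Their log2 folds were 0.20 for Tmed10, 0.21 for Tmed3, 0.05 for Tmed4, 0.11 for Tmed7 and −0.47 for Tmed9. Tested probe sets shared by Tmed10 and Tmed10-ps, left out by the rule, gave −0.09 to 0.03. Those brighter than the one used for Tmed10 were negative. Tested probe sets shared by Tmed2, which is no member, and Gm10698 gave −0.17 to 0.26, and these did not pass either. Tmed9 rested on arrays that disagreed, at 5632 and 2939 in the AV junction and 5284 and 6084 in the ventricular region, and its other probe set gave 0.15. The remaining 3 genes were too dim to be tested: Tmed8 was above background on 1 of 2 arrays in each region, and Tmed6 and Tmed11 were at or under background on the 4 arrays.

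**Figure D3:**
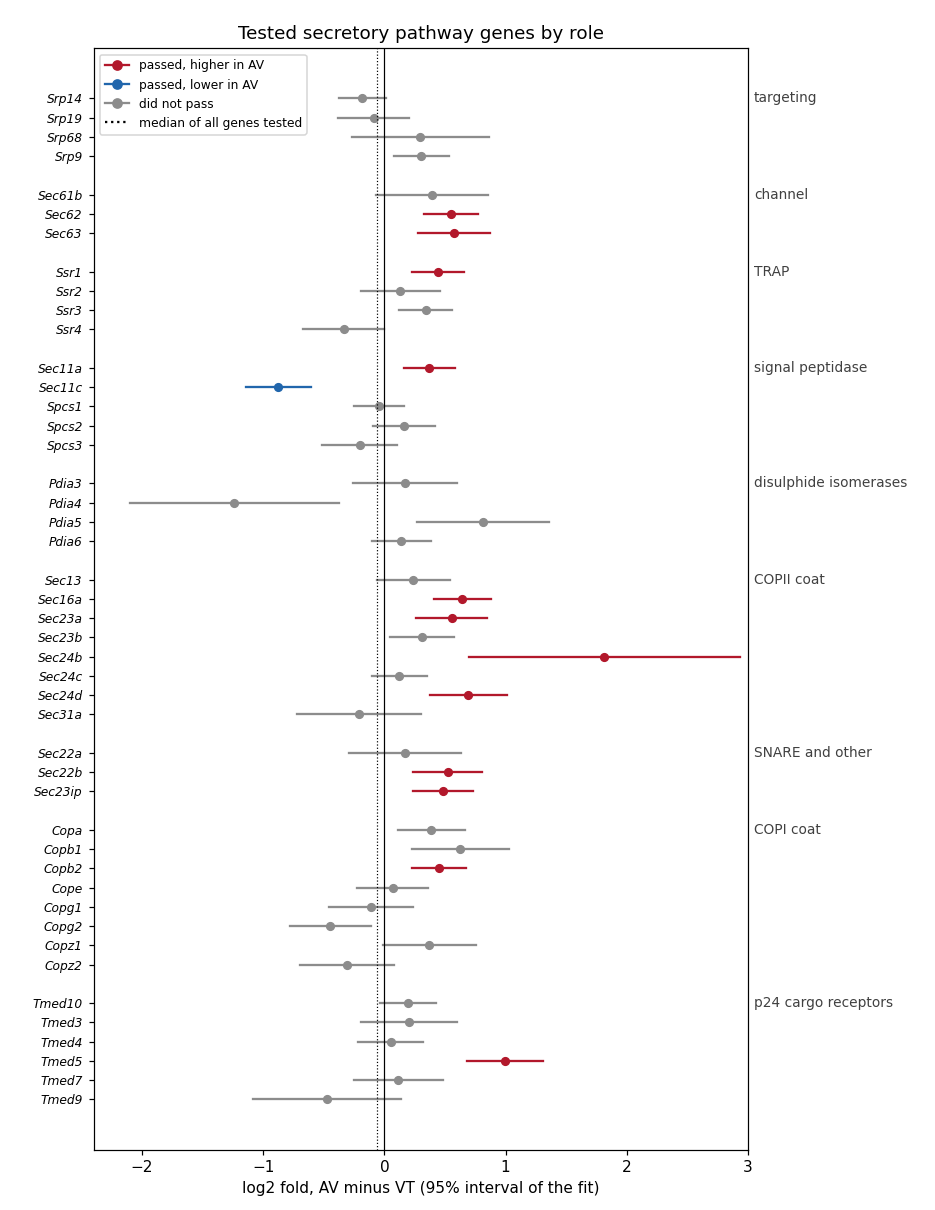
Log2 fold (AV junction minus ventricular region) of the 45 tested secretory pathway genes, grouped by role, with 95% intervals of the limma fit; red passed higher, blue passed lower, grey did not pass, and the dotted line is the median of all genes tested at −0.06. Red points are found in the channel, TRAP, signal peptidase, COPII, SNARE, COPI and p24 groups, and the only blue point is Sec11c at −0.87.

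The calls differed in how far they rested on single arrays. Arrays of the called members did not overlap between regions, so leaving 1 array out could not change a sign. Of the 13 called members, Tmed5 and Sec11c passed in all 4 fits with 1 array left out, and Sec16a passed in 3, missing without ventricular array 1a (adjusted p = 0.0559). Sec62 passed in 2, its misses being the fits that lacked AV array 1b and ventricular array 1a. Sec24d passed in 2, its misses being those that lacked AV array 1b and ventricular array 1b. Sec23a passed without AV array 1b alone and Sec24b without ventricular array 1b alone. Sec63, Ssr1, Sec11a, Sec22b, Sec23ip and Copb2 passed in 0 of the 4, with log2 folds that kept their sign. Of members not called with all arrays, Tmed9 was lower without AV array 1a (−0.94, adjusted p = 0.0113) and Pdia5 higher without ventricular array 1b (1.16, adjusted p = 0.0275). Of the 13 called members 7 had a second tested probe set, and of these 11 further probe sets 0 passed and 8 had the sign of the main one.

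**Figure D4:**
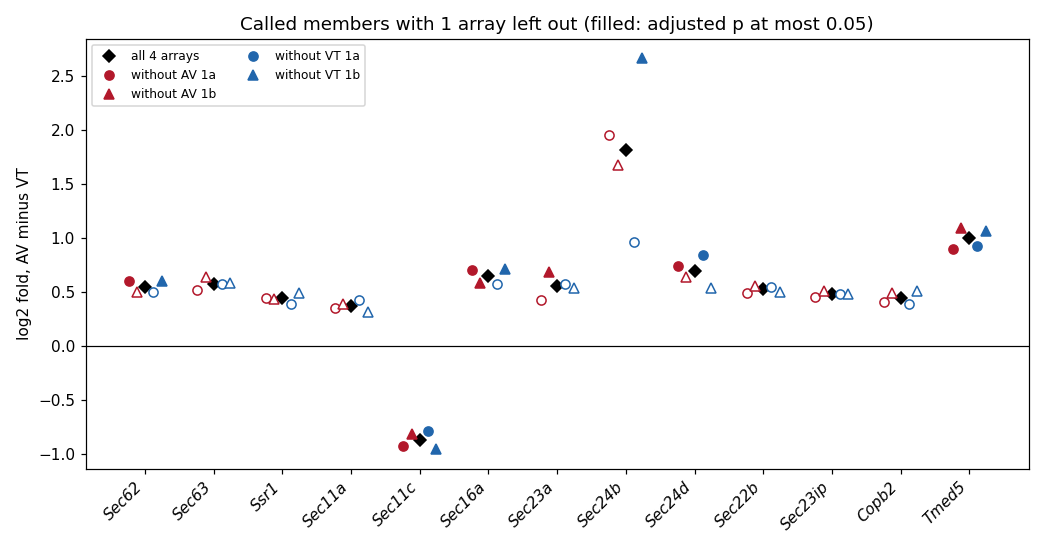
Log2 fold (AV junction minus ventricular region) of the 13 called members with all 4 arrays (black) and with each array left out in turn; filled symbols have an adjusted p of at most 0.05. The symbols of Tmed5 and Sec11c are all filled, and Sec24b runs from 0.97 without ventricular array 1a to 2.66 without ventricular array 1b.

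Other genes of the pathway were taken from lists outside the rule. Their counts stand beside 8.47% higher and 6.56% lower of all genes tested, and 17.3% and 11.6% of genes in the brightest bin. Of 22 ER chaperones and folding enzymes 1 was higher and 0 lower: Hyou1, a helper of Hspa5, read 1771 and 1597 in the AV junction and 1063 and 933.4 in the ventricular region (log2 fold 0.73, adjusted p = 0.00975). The oligosaccharyltransferase, which attaches glycans to entering chains, had 3 higher and 1 lower of 11. Its catalytic subunits Stt3a and Stt3b rose by 0.55 and 0.40 and Krtcap2 by 0.48, while Tusc3 fell by 0.60. Of 8 targeting and translocation partners 1 was higher, Bcap31 at 0.48, and 0 lower.

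Partners of the 2 coats gave 4 higher and 0 lower of 25 for COPII and ER exit, and 0 higher and 1 lower of 18 for COPI and retrieval. The median log2 folds of these lists were 0.21 and 0.006, and of all genes tested 8.47% were higher and 6.56% lower. Bet1, a SNARE of the same step as Sec22b, rose by 0.73 (adjusted p = 0.0132), Rab1a, the small GTPase of ER to Golgi transport, by 0.62 (adjusted p = 0.00627) and Yipf5 by 0.46, and the fourth was Mcfd2 at 0.43. The COPI partner Use1, a SNARE of retrieval, fell by 0.37 (adjusted p = 0.0455). Factors of the unfolded protein response gave 2 higher and 1 lower of 11. Creb3l2, a membrane-bound transcription factor known in mouse cartilage to act on Sec23a, read 3535 and 3584 in the AV junction, against 1518 and 1555 in the ventricular region, a 2.27-fold difference (1.19, SE 0.09, adjusted p = 0.000572). Xbp1 rose by 0.38 (adjusted p = 0.0294) and Atf4 fell by 0.57 (adjusted p = 0.0309).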

How the data were processed

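The deposited tables hold a linear intensity for each probe set. The submitters' processing notes name MAS5 as the tool the authors used, and its version is not given in the sources used here. Instrument records were read for batches only, and each array had a fluidics module of its own.

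Intensities were multiplied by 1 factor per array to reach a trimmed mean of 500 (2% off each end, control probe sets left out). Of 22626 probe sets, the 13403 with a mean of at least 100 were tested. After adding 50 and taking log2, limma 3.58.1 in R 4.3.3 was used (lmFit, eBayes with trend), region being the only term, and Benjamini-Hochberg adjustment ran over all 13403. Every adjusted p is limma's, and folds include the added 50. Of the members' 80 probe sets, 49 stand for their genes; 15 probe sets with several symbols were left out.

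Members, roles and lists were chosen with earlier results of these data known. Values on every array are given for members that passed and for the brightest of a role with none; other values were chosen after they were seen. From each list, up to the 3 largest changes that passed were named; Stt3b and Mcfd2 were named after their values were seen. The ACGTG search was also added then. The fit was tested on simulated data. Alternatives were quantile or median normalisation, pseudocounts of 1 and 200, no floor or 300, no trend, a replicate block, each array left out, mean or restricted probe sets, and a wider name rule. Figures used matplotlib 3.10.9.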

Additional observations from a re-analysis of the deposited data

How the results depend on the processing

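Alternatives were quantile normalisation, median centring, pseudocounts of 1 and 200, a floor of 300, averaging of probe sets per gene, and no probe sets ending in _x_at or _s_at. Under these the count of 12 higher members lay between 10 and 15. Of the 12, between 8 and 12 stayed higher, with the fewest under averaging. In these fits 22.2% to 36.6% of members were higher, against 6.92% to 14.7% of all genes. In each, 1 member was lower (2.22% to 2.44%, against 5.24% to 10.3% of all genes). The counts were 12 and 1 with the wider name rule. Without a filter 6 of 49 members were higher (12.2%, against 3.54% of the 12393 genes then tested). Without a variance trend 1 was higher (2.22%, against 2.9% of all genes). The cause of neither drop was tested. With 1 array left out, which leaves a lone array assumed to vary like the other region, 2 to 5 members were higher and 1 to 2 lower. The replicate block gave 17 higher (37.8%, against 11.4% of all genes) and 3 lower (6.67%, against 10.2%). Same-labelled arrays of the regions were not paired by the labels, and their deviations correlated at r = 0.06. The median log2 fold of 0.21 ran from 0.18 to 0.30. Over all alternatives for the 13 called members, 121 values kept the call, 61 lost it and 0 changed sign. Signs could not change with 1 array left out or with another pseudocount, since the arrays of these members did not overlap between regions. With no filter, a floor of 300, no trend or the block, each log2 fold was the same as in the main fit. Depth is not defined for arrays, and 2 arrays per region limit the precision.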
